A study of Mus musculus with 8 samples.

Results

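Mitochondrial ribosomal proteins were taken as all genes of both germinal centre B cell tables whose symbol begins with Mrpl or Mrps followed by a number. The rule found 76 of 23469 gene symbols. By symbol alone, 47 (Mrpl) were counted as large subunit and 29 (Mrps) as small subunit. The libraries came from germinal centre B cells, B cells that hypermutate their immunoglobulin genes and compete for antigen, sorted from C57BL/6 mice as B220+ FAShigh GL7high on day 13 after immunization with NP-KLH, a hapten coupled to a carrier protein. The mice labelled Irf8 cKO were Irf8flox/flox, the Ctrl mice were Irf8+/+, and both genotypes carried the same Cre allele in 1 copy. Each of 2 experiments gave 1 Irf8 cKO and 1 Ctrl library (n = 2 per group), and neither the ages, the number of mice nor the origin of the libraries from separate animals is stated. The other 4 samples of the series, LPS-activated B cells, were not analysed here.

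Mitochondria keep a ribosome of their own, descended from that of their bacterial ancestor, which translates the few proteins that the mitochondrial genome encodes. All of these proteins are core subunits of the respiratory chain complexes and of ATP synthase. The small subunit binds the messenger RNA and decodes it, the large subunit joins the amino acids, and every ribosomal protein of both is encoded in the nucleus, made in the cytosol and imported. Many have a bacterial counterpart, and others are specific to the mitochondrial ribosome. Germinal centre B cells divide rapidly and are known to rely on oxidative phosphorylation.

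Measured as RPKM (reads per kilobase of transcript at equal library size, as deposited), transcripts of these genes were present at low to moderate levels in every library. The median over the 76 genes was 1.68 and 0.871 RPKM in Irf8 cKO libraries 1 and 2, against 2.22 and 1.73 RPKM in Ctrl libraries 1 and 2. An RPKM of 1 or more was reached by 59 and 33 of the 76 genes in the Irf8 cKO libraries, against 70 and 64 in the Ctrl libraries. Irf8 cKO library 2 thus stood below the other 3 libraries. Together the genes made up 0.476% and 0.438% of all RPKM outside the 45S ribosomal RNA precursor Rn45s in the Irf8 cKO libraries, against 0.497% and 0.458% in the Ctrl libraries. As a share, the Irf8 cKO library was lower in each experiment, but the 2 groups overlapped. The ratio of summed large to summed small subunit RPKM was 2.17 and 2.08 in Irf8 cKO libraries, against 2.13 and 1.87 in Ctrl libraries. This ratio of sums was higher in Irf8 cKO in both experiments while the groups overlapped. The ratio of the 2 medians was 1.77 and 0.921 in Irf8 cKO, against 1.30 and 1.10 in Ctrl. It was thus higher in Irf8 cKO in experiment 1 and lower in experiment 2, so the direction depended on the measure. The order of the genes by level was similar between any 2 libraries, with Spearman's rho between 0.740 and 0.871 over the 76 genes, which share each library's depth and gene lengths. In RNA from sorted cells in bulk, fewer cells of a type and less RNA per cell cannot be told apart. The genes lie on 17 chromosomes, and 10 of them are on chromosome 11.

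**Figure D1:**
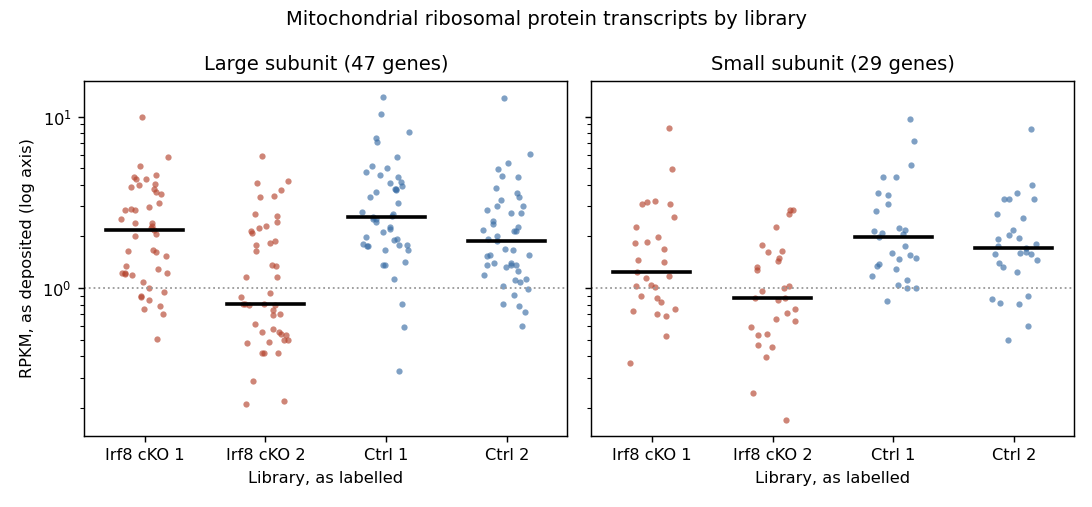
Deposited RPKM (log axis) of every mitochondrial ribosomal protein gene in the 4 libraries, with the large subunit on the left and the small subunit on the right. Each point is a gene, black bars are medians and the dotted line is 1 RPKM. Irf8 cKO library 2 has the lowest median in both panels, 0.804 RPKM for the large and 0.873 RPKM for the small subunit.

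The libraries also differed in ways that are not about these genes, and the exonic share was lower in both Irf8 cKO libraries. It was estimated at 10.2% and 6.84% in the Irf8 cKO libraries, against 12.3% and 11.0% in the Ctrl libraries. Rn45s was at 8589 and 16716 RPKM in Irf8 cKO, against 9085 and 5887 RPKM in Ctrl. All 8 germinal centre B cell markers had 1 RPKM or more in the 4 libraries, Fas among them, whose protein the sort used. The summed RPKM of 8 myeloid markers was 17.6 and 3.48 in Irf8 cKO, against 67.0 and 9.05 in Ctrl, and none of the 8 was at 0 in all libraries, while no T cell marker apart from Lck, which B cells also express, exceeded 0.1 RPKM. Irf8 itself had 20.6 and 11.6 RPKM in Irf8 cKO, against 14.5 and 14.9 RPKM in Ctrl (log2 ratio 0.08 ± 0.35 SE, limma adjusted p = 0.880). Scaling brought its ratio to 0.53, with an adjusted p of 0.300. Irf8 was thus higher in the Irf8 cKO library of experiment 1 and lower in that of experiment 2 as deposited. Once scaled, it was higher in Irf8 cKO in both experiments (log2 ratios 0.71 and 0.35), with no overlap of the groups (14.0% of all genes). The authors' deposited log2 ratios were 0.72 and 0.37. A value over all exons of the gene does not check a deletion of some of them. The part of these library properties in the results below was not tested.

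Differences are given as the log2 ratio of Irf8 cKO over Ctrl on the log2(RPKM + 1) scale, which understates the change of low genes, from limma with the experiment as a block. As deposited, the median log2 ratio of all 6446 tested genes was -0.35, so most results are also given after median-of-ratios scaling, which brings that median to -0.02. Of the 76 genes, 66 reached 1 RPKM in 2 libraries or more and were tested, 43 of the large and 23 of the small subunit. The untested 10 were Mrpl11, Mrpl35, Mrpl38, Mrpl41, Mrps6, Mrps11, Mrps18b, Mrps33, Mrps34 and Mrps36, whose RPKM lay between 0.170 and 1.45 in the 4 libraries.

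A single gene, Mrps27 (mm10 chr13:99344786-99415561, plus strand), passed the test as deposited, and it was lower in Irf8 cKO. MRPS27 is a protein of the mitochondrial small subunit that has no bacterial counterpart and belongs to the pentatricopeptide repeat proteins. Its level was 0.729 and 0.245 RPKM in Irf8 cKO libraries 1 and 2, against 2.16 and 1.58 RPKM in Ctrl libraries 1 and 2. The groups did not overlap (44.7% of all genes), and the Irf8 cKO library was lower in both experiments. Mrps27 reached 1 RPKM in the 2 Ctrl libraries alone. The lack of overlap and the direction therefore follow from the 1 RPKM rule for testing and add no support. The log2 ratio was -0.96 ± 0.23 (SE, n = 2 per group, limma with Benjamini-Hochberg adjustment over 6446 genes, adjusted p = 0.00524). After scaling it was -0.75 ± 0.16 (SE), with an adjusted p of 0.0526, and without the replicate block the adjusted p was 0.0620, so that the call was lost under both. Among all tested genes 1.09% were called lower as deposited and 0.403% after scaling, beside 1 and 0 of the 66 mitochondrial ribosomal protein genes. None was called higher, against 0.0931% of all genes as deposited and 0.233% after scaling. At an unadjusted p under 0.05, 20 of the 66 were lower and 0 higher as deposited (18.6% and 0.264% of all genes), and 10 were lower and 3 higher after scaling (6.1% and 5.35% of all genes).

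The count of called members moved with the libraries in the fit. Leaving out a library also took away the block, and with all 4 libraries the fit without the block called 0 members, so the 0 counts below cannot be put down to the library left out. Without Irf8 cKO library 1 the low Irf8 cKO library 2 stands alone against 2 Ctrl libraries and is assumed to vary as they do. This fit gave 23 members called lower as deposited, beside 22.5% of all tested genes (1450). Leaving out any of the other 3 libraries gave 0 called members, and so did leaving out any library after scaling. Mrps27 had a log2 ratio between -1.20 and -0.64 over these fits, and apart from the fit without Irf8 cKO library 1 as deposited (adjusted p = 0.000781) it was not called. In the authors' deposited table, which compares 1 library with 1 library, Mrps27 had a log2 ratio of -1.36 with an unadjusted p of 0.0147 in experiment 1 and -1.97 with an unadjusted p of 0.0217 in experiment 2. It was the one member with an authors' p under 0.05 in both tables. In the authors' deposited table Mrpl15 (-1.70, p = 0.0180) was lower in experiment 2, Mrpl45 (1.23, p = 0.00928) was higher in experiment 1 and Mrpl37 (1.02, p = 0.0446) was higher in experiment 2. Of all tested genes, 2.87% were lower and 1.78% higher by that measure in experiment 1, and 1.95% lower and 1.66% higher in experiment 2.

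Most members had a log2 ratio below 0, and so did most other genes. As deposited, 63 of the 66 were below 0, beside 92.4% of all tested genes, and 58 were lower in both experiments, beside 71.2% of all genes. The median log2 ratio was -0.43 for the 66 members, with quartiles of -0.58 and -0.29, and -0.35 for all genes. After scaling 50 of the 66 were below 0, beside 53.4% of all genes, and the medians were -0.11 and -0.02. Lower in both experiments after scaling were 27 members (30.2% of all genes), and 9 were higher in both (27.2% of all genes). In experiment 1 the members' median was -0.32, against -0.18 for all genes, and in experiment 2 it was -0.44, against -0.51, as deposited. After scaling it was -0.12, against 0.0011 for all genes, in experiment 1 and -0.085, against -0.026, in experiment 2. The members thus lay below all genes in both experiments after scaling, but only in experiment 1 as deposited.

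**Figure D2:**
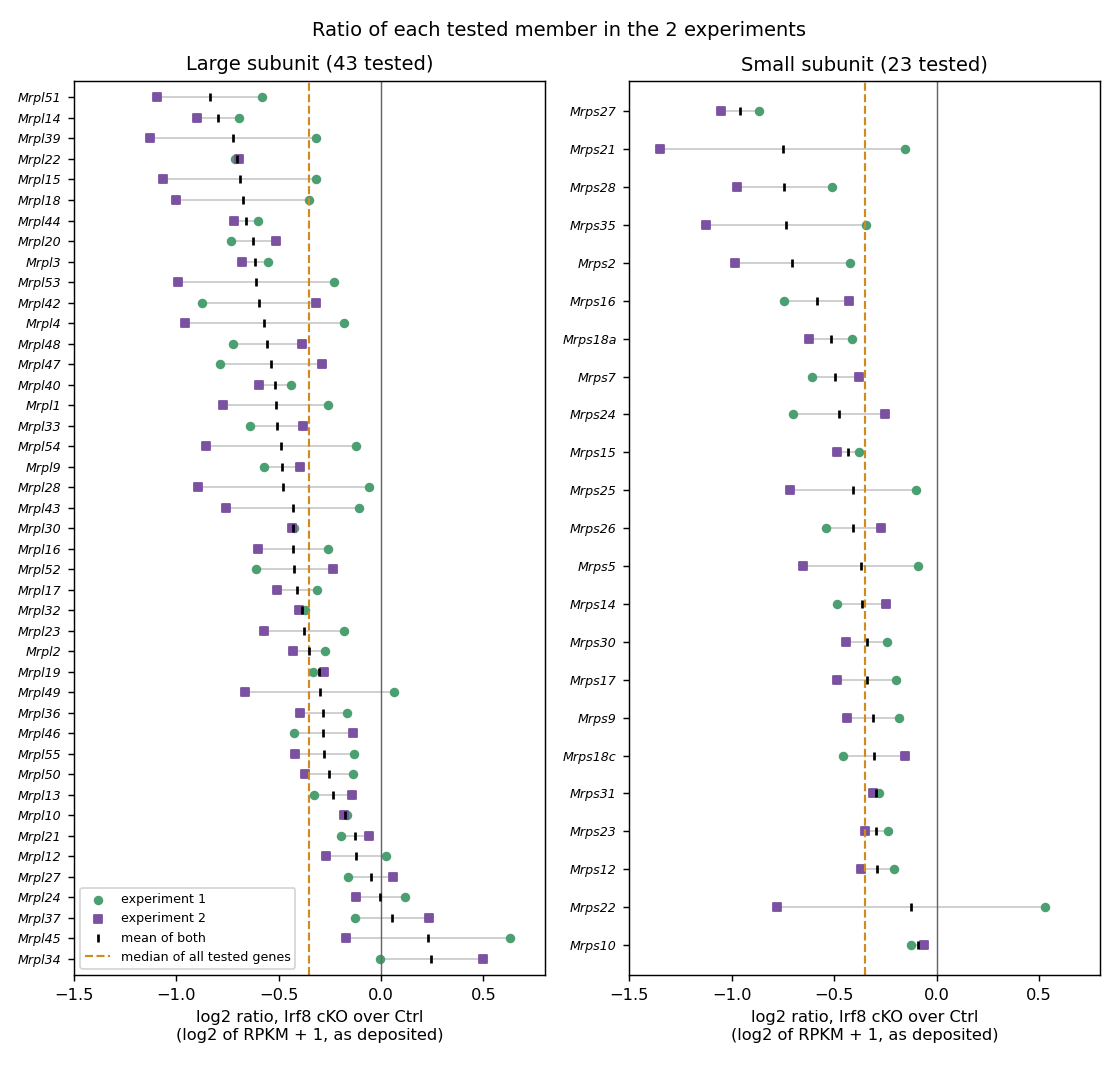
Log2 ratio of Irf8 cKO over Ctrl, on the log2(RPKM + 1) scale as deposited, for the 43 tested large-subunit (left) and 23 tested small-subunit genes (right). Circles are experiment 1, squares experiment 2, ticks their mean, and the dashed line is the median of all tested genes at -0.35. Mrps27 has the lowest mean ratio, and 63 of the 66 means lie below 0.

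Promoters are shown for the members with the lowest and the highest deposited ratio of each subunit, Mrpl51 and Mrpl34 of the large and Mrps27 and Mrps10 of the small subunit, so that the start regions of genes with unlike ratios can be compared. They are RefSeq windows of the GRCm38.p6 assembly from 250 bases before to 50 bases after the start, 5′ to 3′ on the gene's strand. Capitals mark matches, on either strand, to CCGGAAG (the core of ETS factors such as GABP) or AAGATGGCG (YY1). GABP, NRF1 and YY1 are nuclear factors known to act on genes of mitochondrial proteins. Mrpl51 lies at chr6:125191950-125192249, Mrpl34 at chr8:71464676-71464975, Mrps27 at chr13:99344536-99344835 and Mrps10 at chr17:47368947-47369246, all on the plus strand.
Mrpl51: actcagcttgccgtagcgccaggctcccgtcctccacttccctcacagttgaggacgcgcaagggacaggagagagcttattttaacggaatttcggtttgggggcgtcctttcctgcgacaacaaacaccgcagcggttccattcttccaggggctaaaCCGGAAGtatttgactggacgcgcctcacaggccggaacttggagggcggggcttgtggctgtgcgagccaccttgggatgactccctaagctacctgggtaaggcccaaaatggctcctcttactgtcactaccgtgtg
Mrpl34: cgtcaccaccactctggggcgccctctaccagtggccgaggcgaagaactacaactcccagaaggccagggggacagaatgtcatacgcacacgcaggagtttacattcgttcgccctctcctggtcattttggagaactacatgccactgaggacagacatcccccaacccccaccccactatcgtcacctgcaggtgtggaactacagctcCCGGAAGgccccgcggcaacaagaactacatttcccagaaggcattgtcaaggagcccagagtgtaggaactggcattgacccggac
Mrps27: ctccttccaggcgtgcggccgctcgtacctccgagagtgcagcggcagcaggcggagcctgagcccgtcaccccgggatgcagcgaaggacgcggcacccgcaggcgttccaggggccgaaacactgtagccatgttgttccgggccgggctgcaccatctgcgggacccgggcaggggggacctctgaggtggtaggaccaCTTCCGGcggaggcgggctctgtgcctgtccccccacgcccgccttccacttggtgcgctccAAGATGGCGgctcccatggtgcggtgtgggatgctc
Mrps10: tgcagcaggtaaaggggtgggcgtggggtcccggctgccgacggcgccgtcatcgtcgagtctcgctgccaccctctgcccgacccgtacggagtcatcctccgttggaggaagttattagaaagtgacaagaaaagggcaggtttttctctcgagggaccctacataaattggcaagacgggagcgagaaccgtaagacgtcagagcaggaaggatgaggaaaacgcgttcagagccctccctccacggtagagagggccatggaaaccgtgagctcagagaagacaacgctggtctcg

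The ETS core was found in the windows of Mrpl51, Mrpl34 and Mrps27, that is in both the lowest and the highest large-subunit gene, and the YY1 letters in Mrps27. Of the 4 windows Mrps10 held none of the strings searched. Windows were matched for 67 of the 76 members. CCGGAAG was in 23 of them (34.3%), against 9.12% of 27025 promoter windows of the same length, and in 29.3% of large-subunit and 42.3% of small-subunit windows. AAGATGGCG was in 8 (11.9%, against 1.49%), the NRF1 core GCATGCGC in 8 (11.9%, against 2.80%) and the CRE TGACGTCA in 2 (2.99%, against 1.88%). None of these strings holds another. The median deposited log2 ratio was -0.43 over 21 tested members with the ETS core and -0.38 over 38 without it. For the NRF1 core it was -0.48 over 7 members and -0.41 over 52, for YY1 -0.50 over 6 and -0.41 over 53, and for the CRE -0.36 over 2 and -0.41 over 57. The 27025 windows were not limited to expressed genes, so these shares do not compare the members with other expressed genes. A match is a string of letters and shows no binding.

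The large and small subunits had nearly the same median ratio. It was -0.43 for 43 large-subunit genes and -0.41 for 23 small-subunit genes as deposited, a difference of -0.02 on the log2 scale. Within experiments 1 and 2 the difference was 0.03 and 0.01 as deposited. After scaling the large- and small-subunit medians were -0.12 and -0.17 in experiment 1 and -0.099 and -0.034 in experiment 2, so the sign of their difference changed between the experiments. After scaling the medians were -0.12 and -0.08, and counting Mrps18a and Mrps30, whose proteins sit in the large subunit of the known structures, with the large subunit left the deposited medians at -0.43 and -0.41. Leaving out 1 library at a time moved the difference between -0.13 and 0.10, so that its sign depended on the library left out. The values of the single genes were less alike. Both Irf8 cKO libraries lay below both Ctrl libraries for 18 of 43 large-subunit genes (41.9%) and 17 of 23 small-subunit genes (73.9%) as deposited, against 44.7% of all genes. After scaling the shares were 25.6% and 26.1%, against 17.2% of all genes, and 6 large-subunit genes and 1 small-subunit gene lay above both Ctrl libraries, against 14.0% of all genes. No test of the subunits against each other was made, since genes of 1 ribosome are not replicates of a condition.

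Genes with a bacterial counterpart and genes specific to mitochondria were also close in median ratio over both experiments. In the large subunit the median log2 ratio was -0.42 over 28 tested genes with a counterpart and -0.49 over 15 without one. In the small subunit it was -0.43 over 15 and -0.37 over 8. In experiment 2 alone the genes without a counterpart had the lower median in both subunits, at -0.60 against -0.42 in the large and -0.58 against -0.44 in the small subunit. In experiment 1 it was -0.32 against -0.29 in the large and -0.26 against -0.41 in the small subunit, so the order in the small subunit differed between the experiments. Once scaled, the medians with and without a counterpart were -0.12 and -0.19 in the large and -0.10 and -0.070 in the small subunit. In experiment 2 the scaled small-subunit medians were 0.058 with and -0.13 without a counterpart, so they differed in sign. In experiment 1 they were -0.21 and -0.10.

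The most abundant large-subunit transcripts were Mrpl18, Mrpl30, Mrpl42 and Mrpl52. Mrpl18, which encodes the counterpart of the bacterial protein that binds 5S ribosomal RNA, had 9.96 and 5.90 RPKM in Irf8 cKO, against 13.0 and 12.8 RPKM in Ctrl. The groups did not overlap, but the log2 ratio of -0.68 ± 0.34 (SE) did not pass (adjusted p = 0.262), and it was -0.24 after scaling. Mrpl30 had 5.83 and 4.19 RPKM in Irf8 cKO, against 8.16 and 6.02 RPKM in Ctrl. Mrpl42 had 5.16 and 3.39 RPKM in Irf8 cKO, against 10.3 and 4.47 RPKM in Ctrl. Mrpl52 had 4.32 and 4.08 RPKM in Irf8 cKO, against 7.13 and 4.97 RPKM in Ctrl. The groups overlapped for Mrpl42 and not for Mrpl30 and Mrpl52 as deposited. The Irf8 cKO library was lower in each experiment for all 3 genes, with log2 ratios of -0.43, -0.60 and -0.42, which became -0.01, -0.19 and -0.01 after scaling and did not pass on either scale.

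The lowest large-subunit ratios belonged to Mrpl51, Mrpl14 and Mrpl39. Mrpl51 had 2.85 and 0.802 RPKM in Irf8 cKO, against 4.76 and 2.84 RPKM in Ctrl (log2 ratio -0.84 ± 0.28 SE, adjusted p = 0.113). The Irf8 cKO library was lower in each experiment, while Irf8 cKO library 1 lay just above Ctrl library 2. Mrpl14, the counterpart of a bacterial protein at the interface of the subunits, had 1.19 and 0.288 RPKM in Irf8 cKO, against 2.54 and 1.40 RPKM in Ctrl (log2 ratio -0.80 ± 0.24 SE, adjusted p = 0.0550), with no overlap of the groups (44.7% of all genes). Choosing the lowest ratios favours such genes, so the lack of overlap adds no support. Mrpl39 had 3.15 and 0.708 RPKM in Irf8 cKO, against 4.17 and 2.73 RPKM in Ctrl (log2 ratio -0.72 ± 0.28 SE, adjusted p = 0.187), with overlap. None of the 3 passed, and after scaling their log2 ratios were -0.53, -0.58 and -0.43.

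The 3 large-subunit genes with a mean ratio above 0 were Mrpl34, Mrpl45 and Mrpl37. Mrpl34 had 3.77 and 3.45 RPKM in Irf8 cKO, against 3.79 and 2.15 RPKM in Ctrl (log2 ratio 0.25 ± 0.30 SE, adjusted p = 0.565). Mrpl45, whose protein lies at the exit of the tunnel for the growing chain, had 2.29 and 0.699 RPKM in Irf8 cKO, against 1.12 and 0.914 RPKM in Ctrl (log2 ratio 0.23 ± 0.23 SE, adjusted p = 0.506). Mrpl37 had 3.51 and 3.72 RPKM in Irf8 cKO, against 3.93 and 3.01 RPKM in Ctrl (log2 ratio 0.05 ± 0.30 SE, adjusted p = 0.904). In all 3 the experiments had opposite signs, and the groups overlapped as deposited. After scaling the log2 ratios were 0.63, 0.45 and 0.44, and both Irf8 cKO libraries lay above both Ctrl libraries (14.0% of all genes), but none passed (adjusted p = 0.229, 0.342 and 0.389). Choosing the highest ratios favours such genes, so the lack of overlap adds no support.

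The most abundant small-subunit transcripts were Mrps21, Mrps18c, Mrps7 and Mrps15. Mrps21, the counterpart of a small bacterial protein, had 8.61 and 2.72 RPKM in Irf8 cKO, against 9.69 and 8.48 RPKM in Ctrl (log2 ratio -0.75 ± 0.33 SE, adjusted p = 0.232). Its ratio rested on experiment 2, with -0.15 in experiment 1 and -1.35 in experiment 2. Mrps7, the counterpart of a bacterial protein that starts the assembly of the small subunit's head, had 3.09 and 2.85 RPKM in Irf8 cKO, against 5.24 and 4.01 RPKM in Ctrl (log2 ratio -0.49 ± 0.30 SE, adjusted p = 0.315). Mrps15 had 3.21 and 2.26 RPKM in Irf8 cKO, against 4.46 and 3.56 RPKM in Ctrl (log2 ratio -0.43 ± 0.30 SE, adjusted p = 0.351). The groups of Mrps7 and Mrps15 did not overlap as deposited and did after scaling, where the log2 ratios were -0.10 and -0.06.

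Mrps28 was, with Mrps27 and Mrps21, among the 3 lowest small-subunit ratios. It had 1.87 and 0.540 RPKM in Irf8 cKO, against 3.09 and 2.03 RPKM in Ctrl (log2 ratio -0.74 ± 0.26 SE, adjusted p = 0.131), with no overlap on either scale. Among all genes 44.7% lay so as deposited and 17.2% after scaling, and choosing the lowest ratios favours such genes. At the other end stood Mrps12, Mrps22 and Mrps10. Mrps12, the counterpart of the bacterial decoding-centre protein in which streptomycin resistance arises, had 1.03 and 1.28 RPKM in Irf8 cKO, against 1.35 and 1.94 RPKM in Ctrl (log2 ratio -0.29 ± 0.24 SE, adjusted p = 0.435). Mrps10 had 1.97 and 1.50 RPKM in Irf8 cKO, against 2.25 and 1.60 RPKM in Ctrl (log2 ratio -0.09 ± 0.26 SE, adjusted p = 0.807). Mrps22 had 2.59 and 0.641 RPKM in Irf8 cKO, against 1.49 and 1.81 RPKM in Ctrl, so that the Irf8 cKO library was the higher in experiment 1 (log2 ratio 0.53) and the lower in experiment 2 (-0.78), with -0.12 over both (adjusted p = 0.731). Scaling turned the sign of Mrps12 (0.01), Mrps22 (0.12) and Mrps10 (0.22).

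The Mrps18 family consists of 3 paralogs that share 1 bacterial ancestor. Mrps18a, whose protein sits in the large subunit, had 3.10 and 1.79 RPKM in Irf8 cKO, against 4.47 and 3.28 RPKM in Ctrl (log2 ratio -0.52 ± 0.29 SE, adjusted p = 0.292, and -0.16 after scaling). Mrps18c had 4.95 and 2.86 RPKM in Irf8 cKO, against 7.18 and 3.30 RPKM in Ctrl (log2 ratio -0.31 ± 0.31 SE, adjusted p = 0.501, and 0.08 after scaling). Mrps18b, not tested, had 0.758 and 0.755 RPKM in Irf8 cKO, against 0.994 and 1.45 RPKM in Ctrl. In each of the 3 the Irf8 cKO library was lower than the Ctrl library of its experiment, and neither of the tested paralogs passed.

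**Figure D3:**
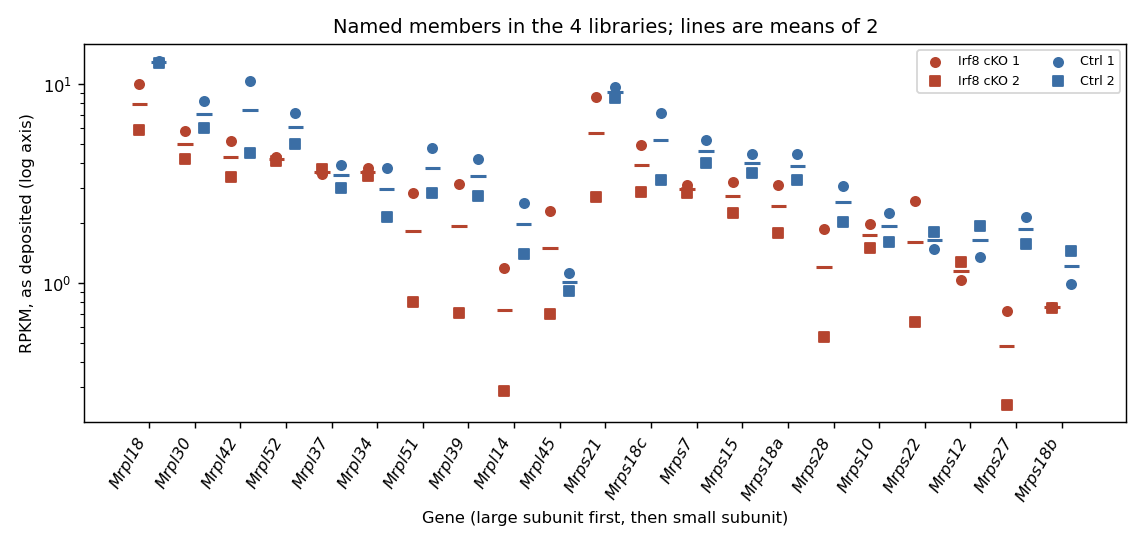
Deposited RPKM (log axis) of the named members, large subunit first and each ordered by mean level, with Irf8 cKO left of Ctrl for each gene. Circles are experiment 1, squares experiment 2 and horizontal lines means of 2 libraries. Mrps27, which reached 1 RPKM in Ctrl alone, has 0.729 RPKM at most in Irf8 cKO and 1.58 RPKM at least in Ctrl. Mrpl34, Mrpl37, Mrpl45 and Mrps22 overlap.

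The experiments ranked the members differently. Over the 66 tested members the log2 ratios of experiments 1 and 2 had a Pearson correlation of 0.113, with 0.205 over the large and -0.09 over the small subunit, against 0.265 over all 6446 genes. These correlations are across genes, which are not independent replicates. In 8 members the experiments had opposite signs, and these were Mrpl12, Mrpl24, Mrpl27, Mrpl34, Mrpl37, Mrpl45, Mrpl49 and Mrps22. Mrpl12, whose bacterial counterpart forms the stalk that recruits translation factors, had 4.53 and 2.64 RPKM in Irf8 cKO, against 4.44 and 3.39 RPKM in Ctrl. The median number of reads per member was estimated at 205 and 90.7 in the Irf8 cKO libraries, against 269 and 138 in the Ctrl libraries. Mrps27 had an estimated 28.8 reads in Irf8 cKO library 2.

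Of 7 further mitochondrial ribosome proteins whose symbols do not begin with Mrpl or Mrps, 1 was called lower as deposited and 0 after scaling, beside 1.09% and 0.403% of all genes. Chchd1, the small-subunit protein also named mS37, had 0.967 and 0.367 RPKM in Irf8 cKO, against 2.19 and 1.83 RPKM in Ctrl. Chchd1 reached 1 RPKM in the 2 Ctrl libraries alone. Its lack of overlap (44.7% of all genes) and its direction therefore follow from the 1 RPKM rule for testing and add no support. It had an estimated 14.4 reads in Irf8 cKO library 2. Its log2 ratio was -0.87 ± 0.24 (SE, limma adjusted p = 0.0278), and -0.64 with an adjusted p of 0.109 after scaling, where the call was lost. Ict1, a peptidyl-tRNA hydrolase built into the large subunit, had 2.67 and 0.849 RPKM in Irf8 cKO, against 0.833 and 2.58 RPKM in Ctrl, and so differed in opposite directions in the 2 experiments. Dap3, a GTP-binding protein of the small subunit, had a log2 ratio of -0.11 ± 0.22 (SE), and Ptcd3, a pentatricopeptide repeat protein of the small subunit, one of -0.13 ± 0.27 (SE). Gadd45gip1 (-0.27), Mrp63 (-0.23) and Aurkaip1 (-0.39) were not called either.

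Other genes of mitochondrial translation and its supply were given by lists, and none of their tested members passed the test in either direction. At an unadjusted p under 0.05, Mrrf and Slirp were lower and none was higher as deposited, beside 18.6% and 0.264% of all genes. Mrrf reached 1 RPKM in the 2 Ctrl libraries alone, so its direction follows from the 1 RPKM rule for testing. After scaling Mrrf and Slirp were lower and Polg was higher, beside 6.1% and 5.35% of all genes. Of 12 translation factors 8 were tested, with a median log2 ratio of -0.33 (-0.02 after scaling), between Mrrf, the ribosome recycling factor (-0.56), and Tufm, the elongation factor Tu (-0.11). Of 24 genes of ribosome assembly and ribosomal RNA modification 7 were tested, with a median of -0.22 (0.12 after scaling), between Mpv17l2 (-0.36) and the RNA helicase gene Dhx30 (0.01). Of 12 genes of mitochondrial transcription, replication and RNA stability 9 were tested, with a median of -0.27 (0.05 after scaling). Slirp, the RNA-binding partner of LRPPRC, was at the low end with 3.22 and 1.82 RPKM in Irf8 cKO, against 7.53 and 3.31 RPKM in Ctrl (log2 ratio -0.81 ± 0.30 SE, adjusted p = 0.159), and Polg, the mitochondrial DNA polymerase, at the high end (0.08). Of 9 nuclear regulators 6 were tested, with a median of -0.31 (0.06 after scaling), between Yy1 (-0.48) and Pprc1, a PGC-1-related coactivator (0.02).

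Over both experiments the mitochondrial ribosomal proteins had a higher median ratio than cytosolic ribosomal proteins and nuclear-encoded subunits of oxidative phosphorylation, but the order depended on the experiment after scaling. As deposited the median log2 ratio was -0.43 for the mitochondrial ribosome, against -0.66 over 80 tested cytosolic ribosomal proteins and -0.62 over 72 oxidative phosphorylation subunits. After scaling it was -0.11 for the mitochondrial ribosome, against -0.19 and -0.21 for those lists and -0.02 for all genes. In experiment 1 the scaled medians were -0.12 for the mitochondrial ribosome, -0.42 for the cytosolic ribosome and -0.35 for oxidative phosphorylation. In experiment 2 they were -0.085 for the mitochondrial ribosome, 0.063 for the cytosolic ribosome and -0.055 for oxidative phosphorylation, so the order was reversed there. The mitochondrial list had 1 gene called lower as deposited, the cytosolic list 1 and the oxidative phosphorylation list 2, beside 1.09% of all genes. The lists also differed in level, with a median of 1.88 RPKM for the tested members, 35.1 for the cytosolic ribosome and 5.65 for oxidative phosphorylation. Since the log2(RPKM + 1) scale understates the change of low genes, the medians are not on an equal footing. The part of level in the gap was not tested. These are medians of genes and no test of a difference between the lists was made.

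**Figure D4:**
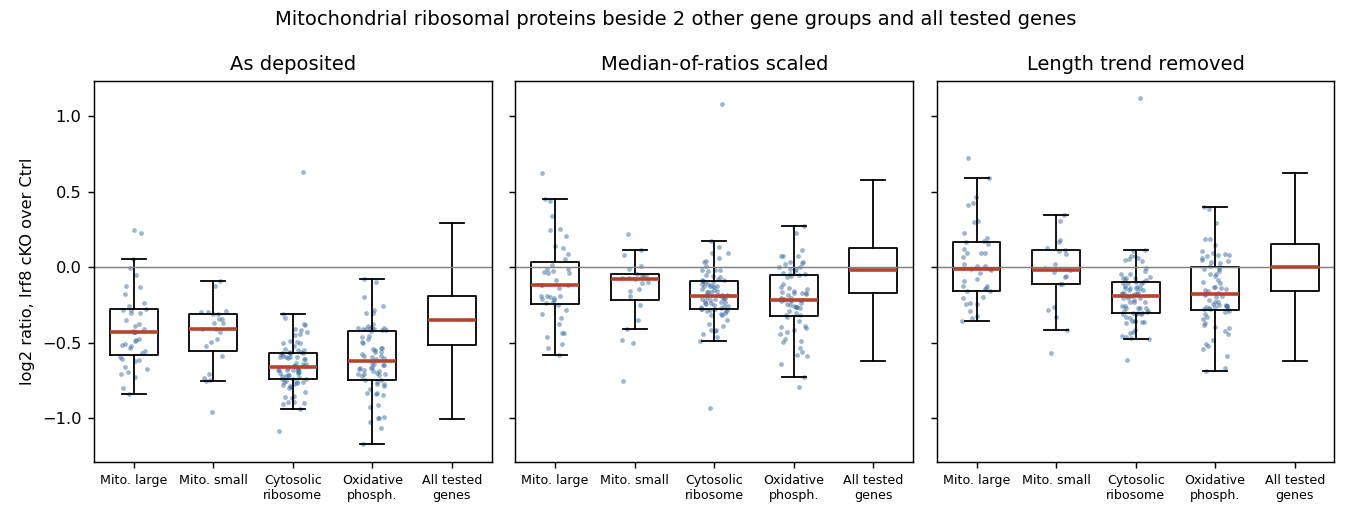
Log2 ratio of Irf8 cKO over Ctrl for large- and small-subunit genes of the mitochondrial ribosome, cytosolic ribosomal proteins, oxidative phosphorylation subunits and all tested genes, as deposited (left), after median-of-ratios scaling (middle) and with the length trend removed (right). Boxes span the quartiles with the median in red, and points are genes. The mitochondrial medians of -0.43 and -0.41 as deposited lie at -0.01 and -0.02 in the right panel, where the shift of all genes is removed as well.

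The ratio moved with transcript length over all genes in experiment 1 and hardly in experiment 2, and the members are short. Their median transcript length was 1224 bases, against 799 bases for cytosolic ribosomal proteins, 786 bases for oxidative phosphorylation subunits and 2907 bases for all tested genes. In experiment 1 the trend over all genes ran from a log2 ratio of -0.54 at 500 bases to -0.08 at 8000 bases. In experiment 2 it went from -0.43 at 500 bases to -0.54 at 2000 bases and back to -0.48 at 8000 bases. With this trend removed the median of the 62 members with a known length was -0.01, with -0.01 for the large and -0.02 for the small subunit, beside 0.00058 for all genes. Subtracting the trend also takes away the shift of all genes (median -0.35 as deposited), as scaling does. Scaling alone brought the members' median to -0.11. The parts of length and of the common shift in the move to -0.01 were not told apart. The cytosolic ribosomal proteins kept a median of -0.19 and the oxidative phosphorylation subunits one of -0.18. For Mrps27 the log2 ratio was -0.57 with the trend removed (adjusted p = 0.121), so it was then not called. Within the members, length and ratio were hardly related, with a Pearson correlation across genes of 0.08 in experiment 1 and -0.09 in experiment 2. Over all tested genes it was 0.30 in experiment 1 and 0.03 in experiment 2.

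**Figure D5:**
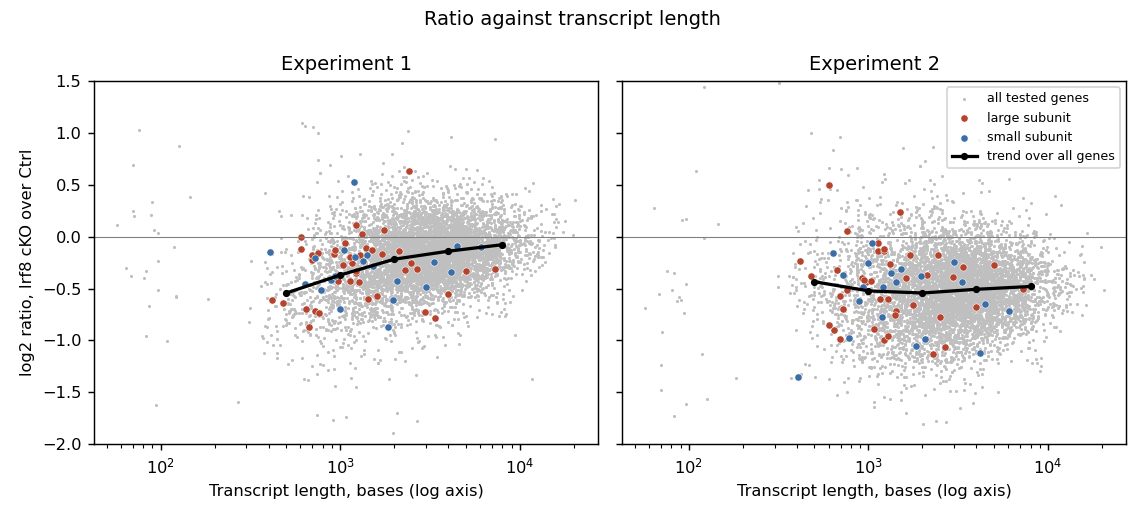
Log2 ratio of Irf8 cKO over Ctrl (log2(RPKM + 1) scale, as deposited) against transcript length in bases (log axis) in experiment 1 (left) and 2 (right). Grey points are all tested genes, coloured points large- and small-subunit genes, and the black line is the trend over all genes. The trend climbs from -0.54 to -0.08 between 500 and 8000 bases in experiment 1, and the members lie around it.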

How the data were processed

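Each experiment has its own deposited table of RPKM values, which the authors computed with Wardrobe, per the labels' design text. TopHat2 2.0, Cufflinks 2.2, Cuffdiff, DESeq, mm10 and mm9 appear in the submitters' processing notes with no stated role. For these tables the aligner is not given in the sources used. Little RNA was at hand, so cDNA was amplified (Ovation v2) before Nextera XT tagmentation, per the labels' protocols. The deposited start equalled the RefSeq GRCm38 start for 54.1% of 21684 matched entries, and positions are given on mm10. A log2 ratio and a p-value of the authors' own stand beside the RPKM, per the file headers. Compared with the log2 RPKM ratio, the authors' deposited log2 ratio is larger by a constant. That constant is 0.205 (experiment 1) or 0.721 (experiment 2), to within 0.05 for 97.2% or 96.3% of genes at 1 RPKM or more in all 4 libraries.

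Each table has 23471 entries, and entries of the same symbol were summed. Genes that reached 1 RPKM in 2 libraries or more (6446) entered limma 3.58.1 (R 4.3.3) on log2(RPKM + 1), 2-sided, with the experiment as a block, a trend in the variance and Benjamini-Hochberg adjustment at a threshold of 0.05. The block leaves 1 residual degree of freedom, and as deposited the prior degrees of freedom were infinite, which means that SE and p reflect genes of similar level and ignore the gene's own spread. They were 13.6 once scaled by median of ratios. The labels number the experiments, and deviations of same-numbered libraries from the group means correlated at 0.377 as deposited and 0.333 after scaling, and the experiment was therefore kept as a block. No label says that libraries came from separate animals, so the p-values rest only on spread between these samples, which may be technical. As deposited that is the spread of genes of similar level. An exact two-sided permutation test of 2 against 2 libraries cannot go below p = 0.333.

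Lengths came from GENCODE transcripts of GRCm38 matched by RefSeq accession, for 93.5% of entries. With totals estimated from low values at 76.1 and 63.8 M reads (Irf8 cKO) and 73.2 and 63.1 M reads (Ctrl), 69.2% to 72.1% of low values came out whole within 0.1, so whole reads were not recovered, no count model was run, and read numbers are approximate. Motifs were counted in 1 window per symbol. For a member it was the window nearest the deposited start, which was 895 bases away for Mrps21 and 740 for Mrpl20. For the 27025 windows it was the first listed for each symbol, expressed or not.

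Named were every called member, the 4 most abundant members and the 3 lowest and 3 highest ratios of each subunit, the Mrps18 family, 7 ribosome proteins that the symbols miss, and the ends of each pathway list. Members, lists and tests were chosen with earlier results of these data known. The locus of the Cre allele is not reported here. Python 3.11.15 was used, with pandas 2.3.3, numpy 2.4.6 and, for figures, matplotlib 3.10.9.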

Additional observations from a re-analysis of the deposited data

How the results depend on the processing

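For all members, the large subunit, the small subunit and their difference, the medians were -0.43, -0.43, -0.41 and -0.02 as deposited. They were -0.11, -0.12, -0.076 and -0.041 after median-of-ratios scaling, with or without the replicate block, and -0.12, -0.14, -0.090 and -0.047 with the scaling taken over genes above 0 in all libraries. With a pseudocount of 0.1 they were -0.63, -0.65, -0.57 and -0.077, and with the length trend removed -0.0087, -0.0073, -0.017 and 0.0096. With 1 RPKM required in all 4 libraries the large-subunit median was -0.30 and the difference 0.088, and with no filter on low values the difference was -0.052.

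The count of members called lower was 1 as deposited and with a pseudocount of 0.1, and 0 under both scalings, without the replicate block, without it after scaling, with no filter, with the stricter filter and with the length trend removed. The stricter filter left Mrps27 out, so the 0 there does not bear on its call. For all genes the called lower and higher were 70 and 6 as deposited, 26 and 15 after scaling, 0 and 0 with scaling over genes above 0, 19 and 2 without the replicate block, 5 and 2 without the block after scaling, 0 and 0 with no filter, 10 and 0 with the stricter filter and 31 and 32 with the length trend removed. At an unadjusted p under 0.05 in limma, 380 genes were lower and 279 higher with scaling over genes above 0, and 1694 and 292 with no filter. Scaled calls thus depended on the genes behind the scaling. The cause was not tested. Mrps27 kept its direction in every fit that tested it, with adjusted p of 0.0526 and 0.350 under the scalings, 0.0620 and 0.418 without the block, 0.257 with no filter and 0.121 with the length trend removed.

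Signs turned, with no call, under scaling for Mrps18c (0.084), Mrps12 (0.0068), Mrps22 (0.12) and Mrps10 (0.22), and likewise without the block after scaling. With scaling over genes above 0 they turned for Mrps18c (0.064), Mrps22 (0.11) and Mrps10 (0.21). With the length trend removed they turned for Mrpl30 (0.020), Mrpl52 (0.067), Mrps18c (0.17), Mrps15 (0.021), Mrps12 (0.18), Mrps22 (0.31) and Mrps10 (0.35). Removing that trend also took away the shift of all genes.

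Leaving out 1 library at a time, as deposited and scaled, with no block, gave members called lower from 0 to 23, all genes called lower from 0 to 1450 and called higher from 0 to 9, and median log2 ratios from -0.64 to -0.056 for the members, from -0.69 to 0.020 for the large and from -0.62 to -0.083 for the small subunit, with a difference from -0.13 to 0.10. The 23 and 1450 came without Irf8 cKO replicate 1 as deposited. Genes whose sign turned in at least 1 of these fits ranged from -0.63 to 0.10 for Mrpl30, from -0.056 to 0.83 for Mrpl34, from -0.10 to 0.74 for Mrpl37, from -1.36 to 0.042 for Mrpl39, from -1.12 to 0.24 for Mrpl42, from -0.25 to 0.81 for Mrpl45, from -0.64 to 0.23 for Mrpl52, from -0.25 to 0.31 for Mrps10, from -0.45 to 0.28 for Mrps12, from -0.77 to 0.45 for Mrps18c, from -1.44 to 0.079 for Mrps21, from -0.69 to 0.55 for Mrps22 and from -0.65 to 0.10 for Mrps7. The scaling over genes above 0, the fit without the block after scaling and the subunits as in the known structures were added after the data were seen.

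At the median of 90.7 estimated reads per member in Irf8 cKO library 2 counting error alone comes to 10.5%, and 10 members were too low to test.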

Other observations

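A set of 10 members, Mrps27 among them, had an unadjusted p under 0.05 in the lower direction both as deposited and after scaling. Of all tested genes 18.6% met this as deposited and 6.1% after scaling. The share meeting both was not counted, so the count of 10 cannot be set against all genes and says nothing about the members as a set. The RPKM of 5 of the 10 have not yet been given. These 5 were chosen after their values were seen and none of the 5 passed the adjusted test. Mrpl22, the counterpart of a bacterial protein that lines the exit tunnel, had 1.00 and 0.481 RPKM in Irf8 cKO, against 2.28 and 1.40 RPKM in Ctrl (log2 ratio -0.70, adjusted p = 0.107). Mrpl15 had 1.21 and 0.210 RPKM in Irf8 cKO, against 1.75 and 1.53 RPKM in Ctrl (log2 ratio -0.69, adjusted p = 0.103). Mrpl44, a member of the ribonuclease III fold family, had 0.753 and 0.416 RPKM in Irf8 cKO, against 1.66 and 1.33 RPKM in Ctrl (log2 ratio -0.66, adjusted p = 0.109). In these 3 large-subunit genes the groups did not overlap on either scale. Mrpl44 reached 1 RPKM in the 2 Ctrl libraries alone, so its lack of overlap as deposited follows from the 1 RPKM rule for testing. Mrps35 had 1.04 and 0.453 RPKM in Irf8 cKO, against 1.59 and 2.17 RPKM in Ctrl (log2 ratio -0.74, adjusted p = 0.0953). Mrps2, the counterpart of a bacterial protein near the messenger RNA exit, had 1.83 and 0.869 RPKM in Irf8 cKO, against 2.80 and 2.70 RPKM in Ctrl (log2 ratio -0.70, adjusted p = 0.177). The groups of both small-subunit genes did not overlap on either scale. Among all genes both Irf8 cKO libraries lay below both Ctrl libraries for 44.7% as deposited and 17.2% after scaling. Choosing genes by their p favours genes without overlap, so the lack of overlap in these 5 adds no support. After scaling the adjusted p of the 5 genes lay between 0.295 and 0.366.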
